A study of Rattus norvegicus with 15 samples.

Results

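Bone transcriptomes of the YJZYT group were set against those of the Blank group, with all genes of the deposited count table as the features. The comparison takes 6 of the 15 libraries of the series, 3 in each group, named below by group and replicate (YJZYT2 is replicate 2 of YJZYT). YJZYT rats were ovariectomized female Sprague-Dawley rats, the condition of the group being known here only by that code. Model rats were ovariectomized and carry no other code, and SYT and YJT were ovariectomized groups under codes of their own. Blank rats were female Sprague-Dawley rats that received no treatment and kept their ovaries. The sources used here give no age, dose or duration, and a sham-operated group was not analysed here. The series is about Zhuanggu Zhitong Capsule, a herbal medicine from China, and no label ties it to a code. Ovariectomy and the YJZYT condition therefore cannot be told apart in this comparison, and Model values are given beside some of the results.

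Removal of the ovaries withdraws most circulating oestrogen, which normally restrains osteoclasts through the RANKL and osteoprotegerin pair, and the rat then loses cancellous bone. Bulk RNA of whole bone also holds marrow blood cells, vessels, fat, periosteum and tendon insertions, and any skeletal muscle that stays attached at dissection. Skeletal muscle is recognised by sarcomere proteins such as skeletal actin, fast and slow myosin light chains and troponins, and by the proteins that couple membrane excitation to calcium release. In bulk samples, fewer cells of a type and less RNA per cell cannot be told apart.

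Library totals lay between 64472700 counts (YJZYT3) and 74255667 counts (YJZYT2). The 6 libraries all carried bone transcripts: Col1a1, the main collagen chain of bone, took 2.94%, 1.34% and 0.226% of all counts in YJZYT1, YJZYT2 and YJZYT3, against 1.01%, 3.15% and 2.36% in Blank1, Blank2 and Blank3. YJZYT3 stood apart by its low share of bone collagen and by the highest haemoglobin share of the 6 (20.0%). The correlation of log2 values across genes had a median of 0.930 over the 9 pairs of a YJZYT and a Blank library, against 0.952 over the 3 pairs within YJZYT and 0.961 over the 3 pairs within Blank. Whether the replicates of a group came from separate rats is not stated, and the p-values reflect only the variation among these samples, which may be technical. Levels below are CPM, the counts of a library scaled to a common total with TMM factors, and are listed by replicate number. Differences are log2 fold changes of YJZYT over Blank with their standard error (SE), and a gene passed where edgeR's quasi-likelihood test gave a Benjamini-Hochberg adjusted p under 0.05.

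Of 17657 genes tested, 66 passed (0.374% of those tested), 3 of them higher (0.017%) and 63 lower (0.357%) in YJZYT than in Blank. The lower genes were led by transcripts of skeletal muscle, by glucocorticoid-induced genes and by matrix genes of fibrous tissue. In all 66 the 3 YJZYT libraries and the 3 Blank libraries did not overlap, as was the case for 22.6% of all genes tested. The smallest difference among the 66 was 0.73 on the log2 scale, and the median of the 63 lower genes was -2.76, while the median over all genes was -0.005. An unadjusted p under 0.05 was reached by 763 genes higher (4.32%) and 1335 genes lower (7.56%), together 11.9% of those tested. The count of 66 rested on single libraries: it was 0 without YJZYT2, YJZYT3, Blank1 or Blank3, 8 without Blank2 and 168 without YJZYT1, while the unadjusted p was under 0.05 for 1856, 1323, 1702 and 1384 genes without YJZYT2, YJZYT3, Blank1 and Blank3. The direction of each of the 66 genes was the same in every setting in which it could be tested.

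**Figure D1:**
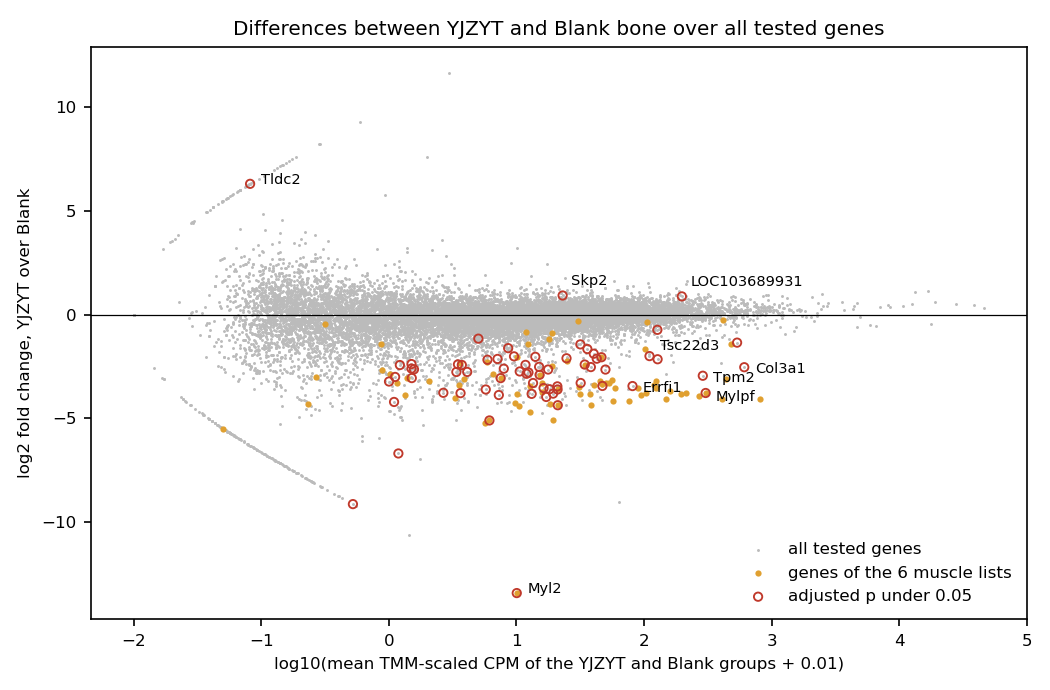
Each point is 1 of 17657 tested genes, with the log2 fold change of YJZYT over Blank on the y axis and the log10 of the mean CPM of both groups on the x axis. Red rings mark the 66 genes with an adjusted p under 0.05, and orange points the 75 tested genes of 6 skeletal muscle lists, all of which lie below 0. The 2 curved bands at the left edge are genes at 0 counts in 1 of the groups, whose fitted values depend on the prior count.

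Set beside the other ovariectomized groups in the same model, Model against Blank gave 4 genes (0.0227%), all lower, with 1446 at an unadjusted p under 0.05 (8.19%). SYT and YJT against Blank gave 0 genes each with edgeR, and 887 (5.02%) and 1465 (8.30%) at an unadjusted p under 0.05. These comparisons share the Blank libraries. YJZYT against Model, which does not use them, gave 0 genes past the threshold with edgeR and 1287 at an unadjusted p under 0.05 (7.29%). A gene that passed against Blank in YJZYT and not in Model is therefore not shown to differ between YJZYT and Model.

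The gene with the smallest p was Adssl1 (ENSRNOG00000046763; chromosome 6, 137184820 to 137206693, plus strand, in the deposited table, for which the sources used here name no genome build). It encodes the muscle form of adenylosuccinate synthase, an enzyme of the purine nucleotide cycle. Adssl1 stood at 14.3, 6.67 and 11.8 CPM in YJZYT, at 16.3, 11.8 and 12.2 CPM in Model and at 56.1, 49.8 and 67.4 CPM in Blank. The YJZYT values lay within or below the Model values, and both groups lay below every Blank library. The log2 fold change of YJZYT over Blank was -2.40 (SE 0.29, adjusted p = 0.014), beside -2.10 (SE 0.28, adjusted p = 0.029) for Model over Blank.

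Of the other 3 genes that passed in Model against Blank, all also passed here. Mlf1 encodes myeloid leukemia factor 1, which is abundant in skeletal muscle as well as in haematopoietic cells. It measured 4.37, 3.60 and 5.49 CPM in YJZYT, 5.14, 3.93 and 4.22 CPM in Model, and 24.4, 21.9 and 30.7 CPM in Blank (YJZYT over Blank -2.51, SE 0.33, adjusted p = 0.014). Sh3bgr, a small SH3-binding protein of heart and skeletal muscle, measured 6.08, 3.45 and 5.14 CPM in YJZYT, 6.18, 3.20 and 7.40 CPM in Model, and 25.7, 32.2 and 33.8 CPM in Blank (-2.64, SE 0.36, adjusted p = 0.018). Pkia, an inhibitor of cAMP-dependent protein kinase, measured 7.33, 4.91 and 4.36 CPM in YJZYT, 4.73, 4.35 and 7.74 CPM in Model, and 22.3, 19.9 and 25.6 CPM in Blank (-2.03, SE 0.26, adjusted p = 0.014). For Mlf1, Sh3bgr and Pkia the YJZYT and Model libraries overlapped. Their YJZYT over Model log2 fold changes were 0.02, -0.19 and -0.02 (adjusted p = 0.994, 0.914 and 0.992). For Mlf1 the other 2 groups lay between, at 6.6, 13.2 and 18.6 CPM in SYT and at 15.7, 21.0 and 18.7 CPM in YJT.

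**Figure D2:**
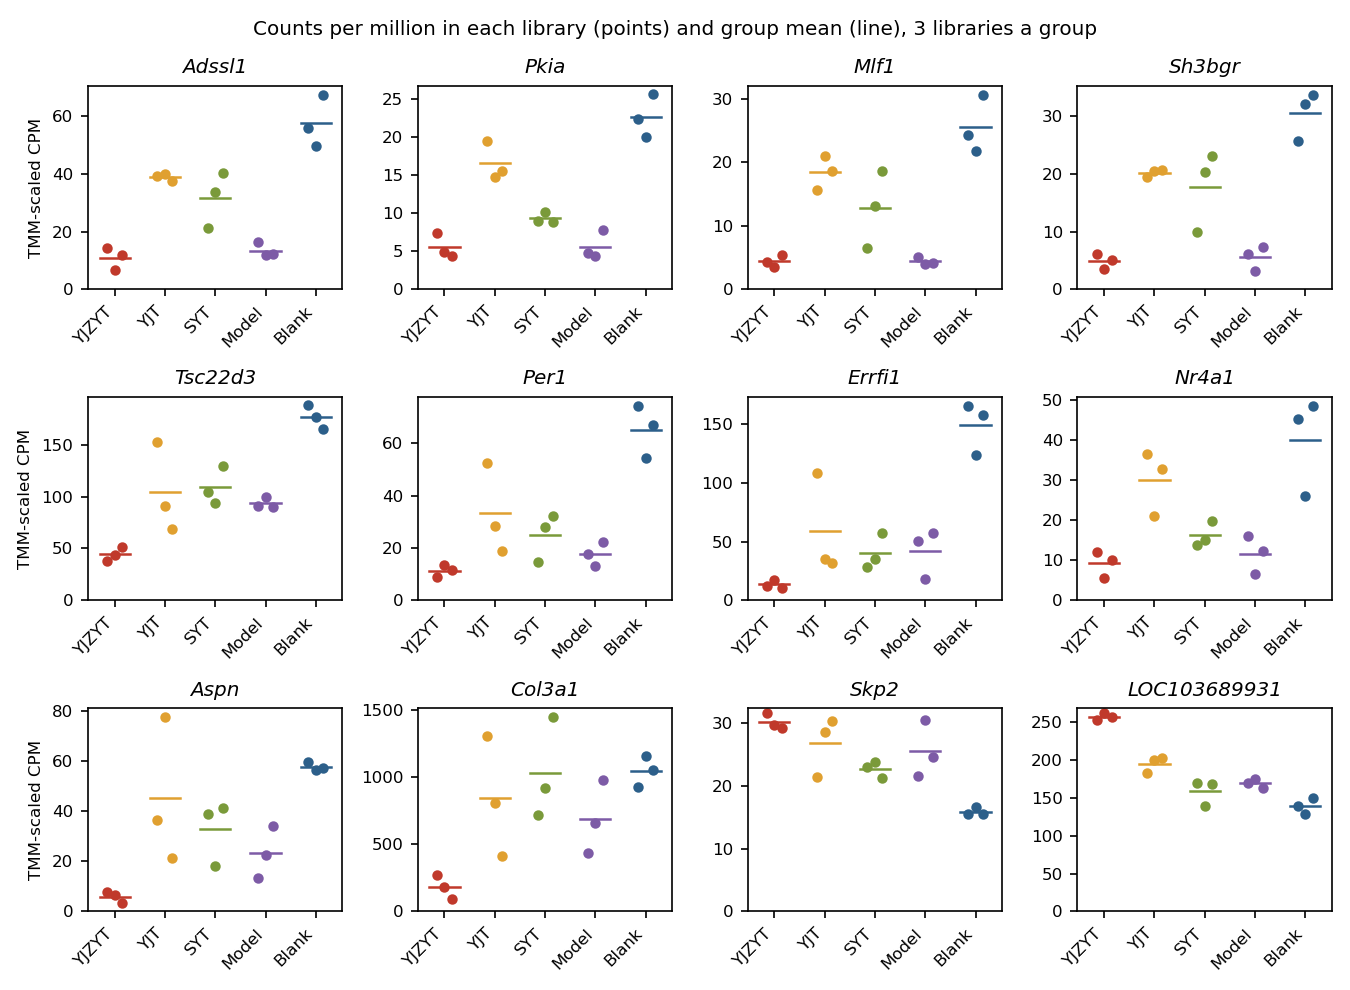
Points are the CPM of single libraries and lines the means of 3 libraries, for 12 genes that passed between YJZYT and Blank, with groups in the order YJZYT, YJT, SYT, Model and Blank. In the top row the YJZYT and Model points share a low range. Tsc22d3, Errfi1, Aspn and Col3a1 have their YJZYT points below all 3 Model points, by a small margin for Errfi1, and LOC103689931 has them above.

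Skeletal muscle genes were lower in YJZYT in all 6 muscle lists tested, and 1 to 3 members passed in each of 5 of them. Over the 6 lists of muscle genes, 75 of 75 tested members were lower in YJZYT, 9 of them passed (12%, against 0.357% of all genes lower) and 66 had an unadjusted p under 0.05. Their median log2 fold change was -3.39, against -0.005 over all genes. By list, the median was -3.70 over 11 fast fibre contractile genes, -3.66 over 10 slow fibre genes, -3.42 over 15 muscle energy enzymes, and -3.29 over 13 sarcomere scaffold genes. It was -3.18 over 14 genes of excitation-contraction coupling and -2.78 over 12 myogenic and satellite cell genes (-2.55 with a member at 0 in YJZYT set at its bound). These medians depended on YJZYT1, the YJZYT library with the most muscle transcripts: without it they lay between -5.59 (slow fibre) and -3.96 (excitation-contraction coupling), with -5.31 for the sarcomere scaffold and -4.99 for the myogenic list, and without YJZYT2 between -3.14 and -2.19. The same list medians for Model over Blank lay between -3.06 and -1.79.

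Among contractile proteins, the fast regulatory light chain Mylpf fell to 74.4, 9.65 and 40.4 CPM in YJZYT, against 430, 701 and 572 CPM in Blank (-3.77, SE 0.71, adjusted p = 0.046). The slow light chain Myl2 had no count in any of the 3 YJZYT libraries and 23.7, 13.0 and 23.7 CPM in Blank. Taking 3 counts over the YJZYT group as the floor, Myl2 was at least 1342-fold lower. Model stood at 1.5, 0 and 6.28 CPM for Myl2, so the 0 in YJZYT is matched by 1 Model library. Tnnc1, the calcium-binding troponin of slow fibres, fell to 20.7, 12 and 21.5 CPM in YJZYT, against 76.0, 69.3 and 79.2 CPM in Blank (-2.05, SE 0.36, adjusted p = 0.042). Tpm2, a tropomyosin of thin filaments, fell to 117, 36.0 and 47.1 CPM in YJZYT, against 540, 406 and 590 CPM in Blank (-2.94, SE 0.53, adjusted p = 0.042). Skeletal actin Acta1 gave a large difference that did not pass, at 211, 5.56 and 57.5 CPM in YJZYT and 1627, 1073 and 1941 CPM in Blank (-4.08, SE 1.05, adjusted p = 0.11). Its 3 YJZYT libraries spanned a far wider range on the log scale than those of Tnnc1.

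The M-band protein Myom1 fell by 2.90 on the log2 scale (SE 0.55, adjusted p = 0.046) and the thin filament cap Tmod4 by 3.59 (SE 0.57, adjusted p = 0.032). Asb14, a ubiquitin ligase adaptor, fell to 0.505, 0.316 and 0.449 CPM in YJZYT, against 1.99, 2.27 and 3.44 CPM in Blank (-2.60, SE 0.41, adjusted p = 0.031). Of the calcium release machinery, 3 of 14 list members passed, against 0.357% of all genes lower. Cacng1, the gamma subunit of the skeletal calcium channel, fell to 0.743, 0.0963 and 0.200 CPM in YJZYT, against 9.79, 11.3 and 14.7 CPM in Blank (-5.10, SE 0.82, adjusted p = 0.033). Triadin (Trdn), which anchors the calcium store protein at the release site, fell by 3.60 and Stac3, an adaptor of the channel, by 3.06. Tmem38a, a potassium channel of the sarcoplasmic reticulum outside the lists, fell by 3.44 (SE 0.61, adjusted p = 0.042). The muscle form of a cytochrome oxidase subunit, Cox6a2, fell to 4.03, 0.468 and 1.37 CPM in YJZYT, against 39.4, 31.0 and 50.4 CPM in Blank (-4.36, SE 0.73, adjusted p = 0.038). No myogenic factor passed: myogenin (Myog) was at 0.282, 0.0550 and 0.166 CPM in YJZYT and at 2.57, 2.52 and 2.36 CPM in Blank (adjusted p = 0.062). In the deposited gene ontology annotation, words for muscle or sarcomere stood with 23 of 64 annotated genes that passed (35.9%), against 911 of 15355 tested genes (5.93%).

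Summed over the 6 lists, muscle transcripts took 0.252%, 0.0927% and 0.108% of all counts in YJZYT1, YJZYT2 and YJZYT3, against 1.07%, 0.854% and 1.36% in Blank1, Blank2 and Blank3. The means were 0.151% ± 0.0879 in YJZYT and 1.09% ± 0.253 in Blank (SD, n = 3 each; exact two-sided permutation p = 0.1, the smallest that 3 against 3 libraries can give). The 95% Wilson intervals of these shares reached at most 0.0028 percentage points to either side, for counting error only. YJZYT1 had more than the other 2 YJZYT libraries and less than any Blank library. The shares were 0.792%, 0.647% and 0.687% in YJT, 0.206%, 0.660% and 0.801% in SYT, and 0.238%, 0.145% and 0.298% in Model. No label gives the amount of attached muscle in a sample, and its part in the lower muscle genes was not tested.

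**Figure D3:**
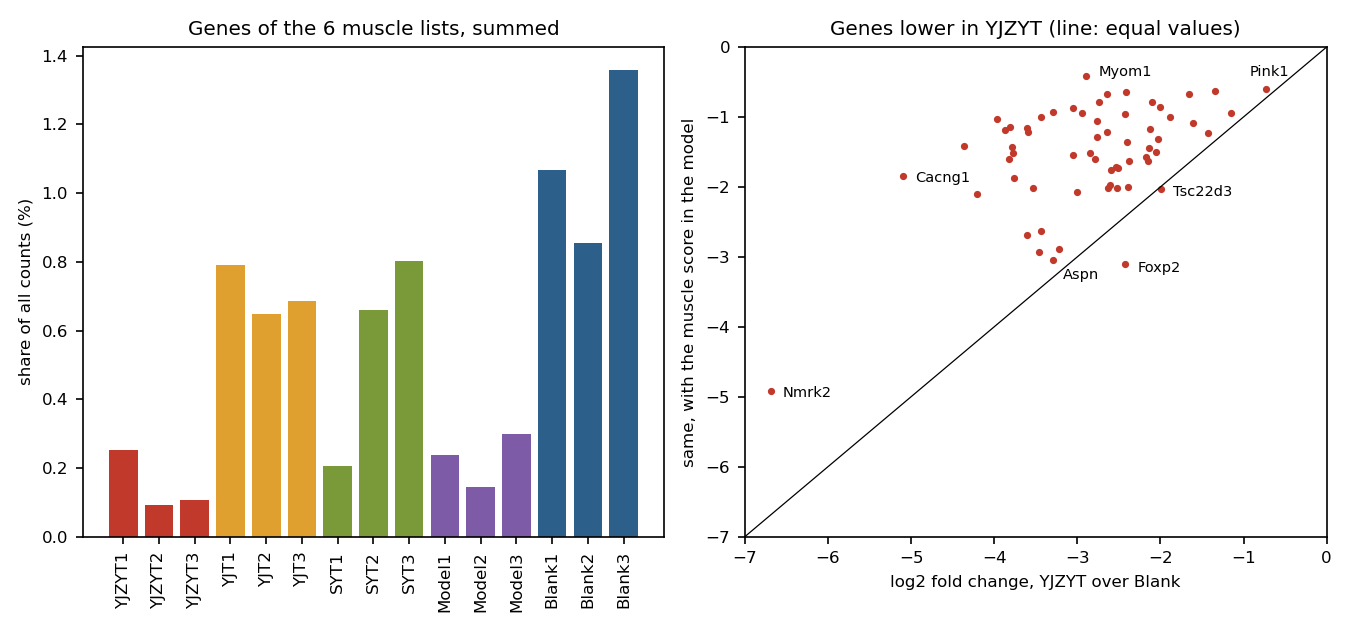
Left, bars give the share of all counts, in percent, taken by the genes of the 6 muscle lists in each library, in the order YJZYT, YJT, SYT, Model and Blank, with the 3 YJZYT bars at 0.252%, 0.0927% and 0.108% below the 3 Blank bars. Right, each point is a gene lower in YJZYT, with its log2 fold change of YJZYT over Blank without (x axis) and with (y axis) the muscle score of each library in the model. Tsc22d3, Aspn and Foxp2 lie near or below the line of equal values, Myom1 far above it, and Myl2 and Adamts8, with no counts in YJZYT, are left out.

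When each library's muscle score, the median deviation of the muscle list genes, was added to the model after the data had been seen, 0 genes passed with edgeR and 1073 had an unadjusted p under 0.05. All 63 lower genes kept their direction, and the median of their log2 fold changes was -1.45 in place of -2.76. The score is built from genes that are themselves lower in YJZYT and shares most of its range with the groups, so this fit removes any group difference that runs in parallel. Of the 63 genes, 14 kept at least 75% of their log2 fold change. The 9 genes in a muscle list help to build the score, so their absence from the 14 was largely built in. Over the 54 lower genes in no muscle list the median was -1.48 in place of -2.64. A gene among the 14 is not shown to be independent of muscle. The 14 were Foxp2, Tsc22d3, Aspn, Aspnl1, Cebpb, Per1, Errfi1, Higd1b, Fabp4, Pink1, Depp1, Tcim, LOC684871 and Itgb1bp2, the last of which encodes melusin, a protein of striated muscle. Myom1 was at -0.42 in this fit, and Tmem38a at -1.

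The promoters of 4 muscle genes that passed are shown because their upstream sequence holds a motif bound by muscle regulators in other work. Each is the 250 bases before the RefSeq start (GRCr8), 5′ to 3′, with capitals for the E-box CAGCTG read by myogenic factors and, in Cox6a2, also for a MEF2 site. The genes are Cox6a2 (chr1:192219717-192219966, minus strand), Stac3 (chr7:65228225-65228474, plus strand), Mylpf, listed there as Myl11 (chr1:191260039-191260288, plus strand), and Tmod4 (chr2:185384469-185384718, plus strand).
Cox6a2: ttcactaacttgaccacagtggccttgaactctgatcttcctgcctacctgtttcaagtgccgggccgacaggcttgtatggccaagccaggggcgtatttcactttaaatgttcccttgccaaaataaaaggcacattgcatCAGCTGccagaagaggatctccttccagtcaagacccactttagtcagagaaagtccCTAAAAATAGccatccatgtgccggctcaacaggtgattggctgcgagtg
Stac3: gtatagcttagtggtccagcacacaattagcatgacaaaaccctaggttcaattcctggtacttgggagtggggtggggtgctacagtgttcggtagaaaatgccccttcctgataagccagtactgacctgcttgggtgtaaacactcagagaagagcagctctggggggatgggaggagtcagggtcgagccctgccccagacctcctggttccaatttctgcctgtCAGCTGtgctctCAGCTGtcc
Mylpf: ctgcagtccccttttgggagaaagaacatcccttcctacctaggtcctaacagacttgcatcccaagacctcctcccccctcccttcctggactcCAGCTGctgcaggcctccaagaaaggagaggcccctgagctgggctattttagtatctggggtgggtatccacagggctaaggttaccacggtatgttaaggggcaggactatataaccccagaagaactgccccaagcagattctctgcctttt
Tmod4: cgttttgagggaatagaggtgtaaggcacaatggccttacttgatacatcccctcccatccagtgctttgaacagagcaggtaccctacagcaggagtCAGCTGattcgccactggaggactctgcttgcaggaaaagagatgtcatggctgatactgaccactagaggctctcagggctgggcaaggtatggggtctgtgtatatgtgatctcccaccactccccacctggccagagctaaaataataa
Windows of 300 bases, from 250 before to 50 after the start, were searched on both strands. The E-box was in 16 of 49 promoters of the lower genes (32.7%; 43 of 63 genes had an entry) and in 30 of 64 promoters of the muscle lists (46.9%; 59 of 75 genes). Of all 33469 promoters in the table, 15.1% held it. Tmem38a, Tpm2, Trdn and Myom1, muscle genes that passed, held neither the E-box nor the MEF2 site in the 250 bases before the start. Skp2, a gene higher in YJZYT, held the E-box 26 bases before its start. The MEF2 site was in 2 of the 49 promoters (4.08%) and 5 of the 64 (7.81%), against 0.565% of all. The CArG box was in 0 of the 49 promoters and 4 of the 64 (6.25%), against 1.64% of all. Of the 49 promoters, 0 held the palindromic oestrogen response element, against 0.0269% of all. The TATA box, searched after the data had been seen, was in 12 of the 49 promoters (24.5%), 15 of the 64 (23.4%) and 6 of 15 of the glucocorticoid list (40%), against 14.2% of all. No site of one motif overlapped a site of another in the printed stretches, and a match is a description of letters only.

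Glucocorticoid-induced genes formed a further group. All 12 tested members of the list were lower in YJZYT, with a median log2 fold change of -1.74, 3 passed and 9 did not overlap between the groups (12.7% of all genes were lower without overlap). Tsc22d3, which encodes the glucocorticoid-induced leucine zipper GILZ, stood at 38.2, 43.7 and 51.1 CPM in YJZYT, 90.5, 99.9 and 89.5 CPM in Model and 188, 177 and 165 CPM in Blank. The 3 groups were fully separated, in that order. The log2 fold change was -2.00 over Blank (SE 0.25, adjusted p = 0.014) and -1.07 over Model (adjusted p = 0.638). The YJT libraries ranged widely for this gene, at 152, 91.1 and 68.7 CPM. Tsc22d3 was also the single gene to pass when YJT3 and YJZYT3 were both left out, and it was 1 of 6 that passed with the replicate number as a block.

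Per1, a repressor of the circadian clock that glucocorticoids also induce, measured 8.93, 13.5 and 11.7 CPM in YJZYT, 17.9, 13.3 and 22.4 CPM in Model, and 74.5, 54.6 and 66.9 CPM in Blank (YJZYT over Blank -2.53, SE 0.38, adjusted p = 0.031). Errfi1, a feedback inhibitor of the EGF receptor, measured 12.6, 17.7 and 10.8 CPM in YJZYT, 50.5, 18.5 and 57.6 CPM in Model, and 165, 124 and 158 CPM in Blank (-3.44, SE 0.53, adjusted p = 0.031). For both genes every YJZYT library was far below the lowest Blank library. Pdk4, the kinase that shuts off pyruvate dehydrogenase, did not pass at 7.47, 1.89 and 1.5 CPM in YJZYT and 71.2, 35.7 and 78.4 CPM in Blank (adjusted p = 0.070). Nor did Klf9, a glucocorticoid-induced zinc finger factor, at 7.47, 6.19 and 4.54 CPM in YJZYT and 27.2, 32.2 and 28.1 CPM in Blank (adjusted p = 0.073). Fkbp5 and Sgk1, induced by glucocorticoids in many tissues, had log2 fold changes of -0.31 and -0.06, and their libraries overlapped between the groups. The list's summed level was 315, 339 and 373 CPM in YJZYT, 648, 446 and 514 CPM in Model, and 1004, 858 and 835 CPM in Blank.

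Immediate early and heat shock genes were lower for 14 of 19 members (median -0.76), of which 1 passed, against 0.357% of all genes lower. This was Nr4a1, an orphan nuclear receptor induced within minutes by many stimuli, at 12.2, 5.67 and 10.2 CPM in YJZYT, 16.1, 6.71 and 12.3 CPM in Model, and 45.4, 26.1 and 48.7 CPM in Blank (-2.10, SE 0.38, adjusted p = 0.042). Fos missed the threshold at 7.71, 9.41 and 7.29 CPM in YJZYT and 22.3, 22.6 and 32.5 CPM in Blank (adjusted p = 0.051), and so did the small heat shock protein Hspb1 (-3.29, adjusted p = 0.052). Its relative Hspb8, outside the list, fell by 3.97 (SE 0.73, adjusted p = 0.042). Cebpb, a transcription factor of fat cells and of the acute phase, fell to 19.2, 13.6 and 18.7 CPM in YJZYT, against 41.2, 58.3 and 39.3 CPM in Blank (-1.43, SE 0.27, adjusted p = 0.046). Of the 15 circadian genes Per1 alone passed, against 0.357% of all genes lower. The core activator Arntl (BMAL1) was at 8.54, 9.37 and 5.06 CPM in YJZYT and 14.7, 16.3 and 17.2 CPM in Blank (adjusted p = 0.074). The hour of tissue collection is not stated, and its part in these genes was not tested.

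Matrix genes of tendon, periosteum and fibroblasts were lower in YJZYT for 18 of 18 tested members, with a median of -2.03. Of them 2 passed, against 0.357% of all genes lower. Asporin (Aspn), a small leucine-rich proteoglycan of fibrous and cartilage matrix, stood at 7.68, 6.48 and 3.55 CPM in YJZYT, 13.4, 22.5 and 34.2 CPM in Model, and 59.8, 56.6 and 57.3 CPM in Blank (-3.29, SE 0.51, adjusted p = 0.031). Its log2 fold change over Model was -1.98 (adjusted p = 0.638). An entry named asporin-like 1 (Aspnl1) fell by 3.46 as well, but near-identical copies may share reads, so the 2 entries are uncertain as separate genes. Col3a1, the fibrillar collagen of soft connective tissue, stood at 271, 181 and 89.2 CPM in YJZYT, 436, 659 and 976 CPM in Model, and 924, 1156 and 1048 CPM in Blank (-2.53, SE 0.49, adjusted p = 0.046). The Model libraries lay between, and the highest overlapped the Blank range. Periostin (Postn), a periosteal matrix protein, did not pass at 69.9, 74 and 28.5 CPM in YJZYT and 280, 304 and 267 CPM in Blank (-2.30, adjusted p = 0.077). The list's median was -0.44 for Model over Blank and -1.31 for YJZYT over Model. Without YJZYT3 it was -1.61 for YJZYT over Blank.

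Tppp3, Fndc1, Adamts8, Ostn and Fndc5, which belong to none of the lists, also passed. Tppp3, a microtubule-binding protein that marks tendon sheath cells in the mouse, fell to 2.04, 1.66 and 4.08 CPM in YJZYT, against 27.2, 30.6 and 32.4 CPM in Blank (-3.54, SE 0.55, adjusted p = 0.031). Fndc1, a fibronectin-domain protein, fell by 3.82 (SE 0.65, adjusted p = 0.039). Adamts8, a secreted protease, had no count in YJZYT and 1.36, 0.766 and 0.954 CPM in Blank, which makes it at least 68.4-fold lower. Osteocrin (Ostn), a secreted peptide of muscle and young osteoblasts that binds the natriuretic peptide clearance receptor, fell to 1.6, 0.275 and 0.732 CPM in YJZYT, against 12.2, 9.51 and 10.1 CPM in Blank (-3.61, SE 0.60, adjusted p = 0.038). Fndc5, the precursor of the muscle hormone irisin, fell by 1.61 (SE 0.29, adjusted p = 0.042).

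Fat and vessel genes were also mostly lower. Of 19 adipocyte genes 16 were lower (median -0.96, -1.63 without YJZYT1) and 1 passed, against 0.357% of all genes lower. Fabp4, the fatty acid binding protein of fat cells and small-vessel endothelium, stood at 47.3, 51.4 and 42.6 CPM in YJZYT, 82.3, 23.2 and 57.0 CPM in Model, and 193, 178 and 255 CPM in Blank (-2.15, SE 0.39, adjusted p = 0.042). Adiponectin (Adipoq) overlapped between the groups, at 19.3, 12.4 and 6.41 CPM in YJZYT and 16.3, 29.1 and 29.0 CPM in Blank (adjusted p = 0.658). Pparg, the master regulator of fat cells, had a log2 fold change of -0.86 (SE 0.47, adjusted p = 0.504). The caveola protein Cav1, in neither the adipocyte nor the endothelial list, fell to 20.0, 8.83 and 12.5 CPM in YJZYT, against 85.5, 71.6 and 101 CPM in Blank (-2.64, SE 0.49, adjusted p = 0.042). With the muscle score in the model Cav1 was at -0.67. All 14 tested endothelial genes were lower (median -0.99) and 12 did not overlap, but 0 passed with edgeR and 8 had an unadjusted p under 0.05. Of all genes, 12.7% were lower without overlap and 7.56% lower at that p. The angiopoietin receptor Tek, for example, was at 23.5, 22.5 and 15.7 CPM in YJZYT and 39.8, 48.6 and 48.3 CPM in Blank (adjusted p = 0.109). The 12 pericyte and smooth muscle genes were all lower too (median -1.60), with 0 passing and 6 at an unadjusted p under 0.05. The smooth muscle myosin Myh11 stood at 5.88, 2.57 and 6.36 CPM in YJZYT and 22.1, 27.6 and 19.9 CPM in Blank (adjusted p = 0.063). For Model over Blank the list medians were -1.10 (adipocyte), -0.61 (endothelial) and -0.81 (pericyte and smooth muscle). For YJZYT over Model they were 0.04, -0.40 and -0.73 in the same order.

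**Figure D4:**
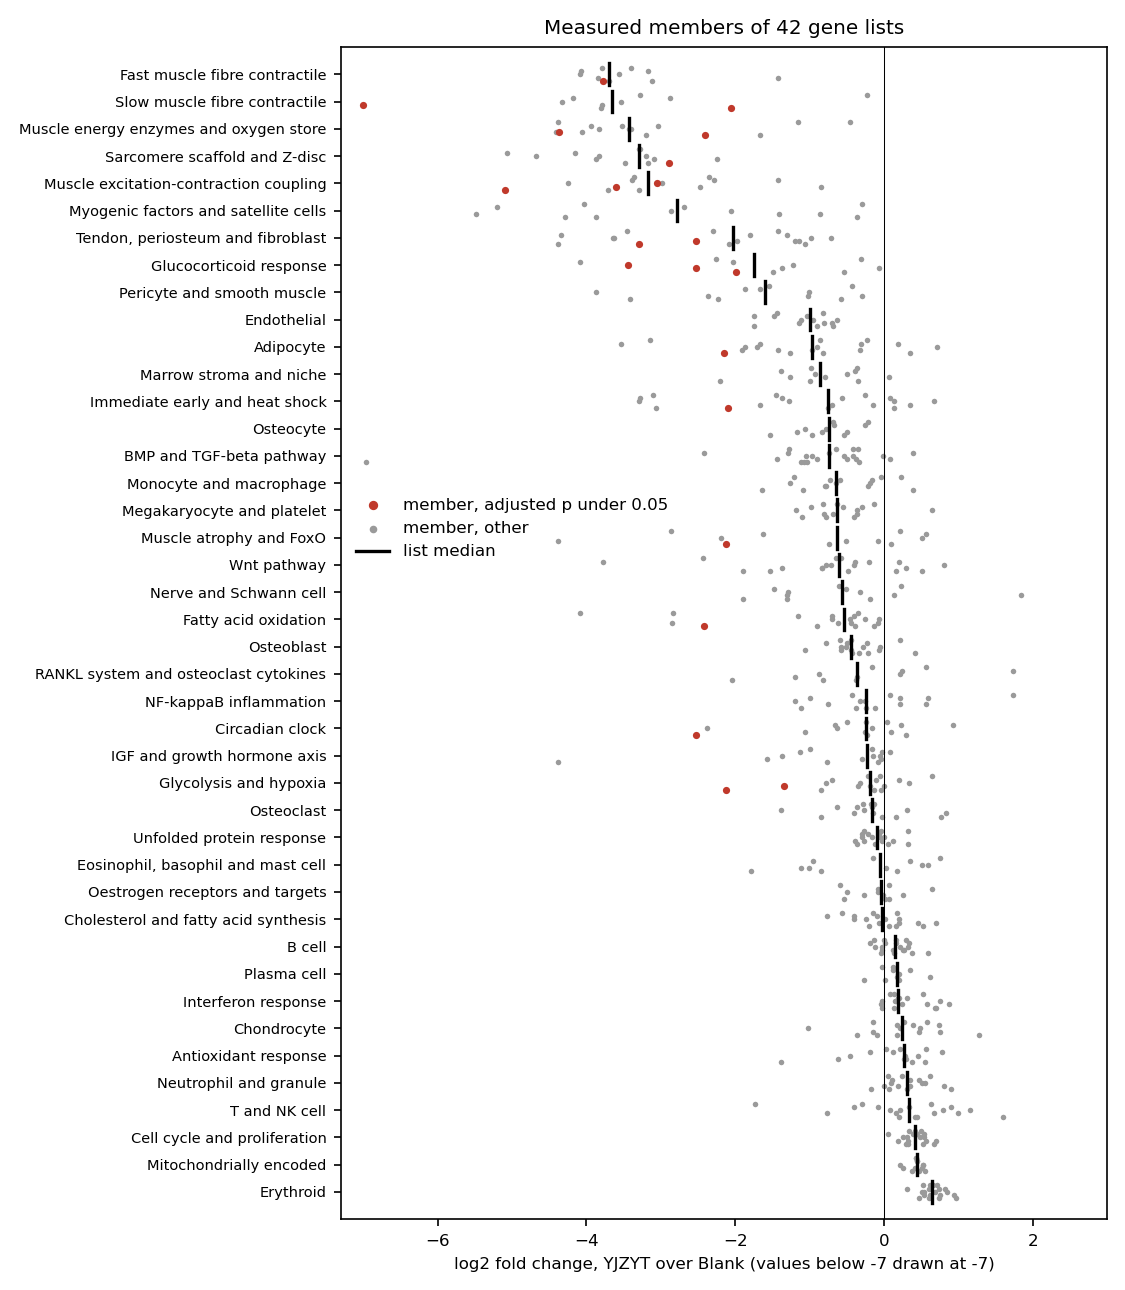
Each row is 1 of 42 gene lists, each point the log2 fold change of YJZYT over Blank of a tested member, and each black bar the list median. Red points passed the threshold, all of them lower in YJZYT, and values below -7 are drawn at -7. The rows run down from the muscle lists, with medians between -3.70 and -2.78, to the erythroid list at 0.64.

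Among metabolic genes, fatty acid oxidation was lower for 18 of 18 members, with a small median of -0.54. The list median was -0.55 for Model over Blank and 0.003 for YJZYT over Model. Of the members Cpt1b alone passed, against 0.357% of all genes lower. This muscle form of the carnitine transferase that admits fatty acids to mitochondria fell to 6.15, 1.82 and 3.16 CPM in YJZYT, against 21.1, 15.3 and 23.1 CPM in Blank (-2.42, SE 0.44, adjusted p = 0.042). Medium-chain acyl-CoA dehydrogenase (Acadm), present in most tissues, was at 54.7, 57.4 and 49.6 CPM in YJZYT and 70.6, 91.3 and 101 CPM in Blank (-0.70, adjusted p = 0.070). Of 17 glycolysis and hypoxia genes 2 passed, against 0.357% of all genes lower. They were Aldoa, the aldolase most abundant in muscle, at 348, 244 and 317 CPM in YJZYT and 788, 626 and 900 CPM in Blank (-1.35, SE 0.24, adjusted p = 0.042), and Bnip3. Bnip3, a mitophagy receptor, fell by 2.12 (SE 0.35, adjusted p = 0.036). Pink1, the kinase that marks damaged mitochondria, had the smallest difference of the 66 and close replicates, at 93.2, 92.6 and 102 CPM in YJZYT, 103, 107 and 103 CPM in Model, and 159, 163 and 155 CPM in Blank (-0.73, SE 0.14, adjusted p = 0.043). Chac1, which breaks down glutathione, fell by 2.13 (SE 0.37, adjusted p = 0.042).

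With edgeR, 3 genes were higher in YJZYT past the threshold (120 with DESeq2). LOC103689931, described in the table as heterogeneous nuclear ribonucleoprotein A/B, measured 253, 262 and 257 CPM in YJZYT, 170, 175 and 164 CPM in Model, and 139, 129 and 150 CPM in Blank (0.88, SE 0.13, adjusted p = 0.028). Such proteins bind nascent transcripts, and this entry may share reads with related copies. Skp2, the F-box subunit that targets the cell cycle inhibitor p27 for breakdown, measured 31.6, 29.7 and 29.2 CPM in YJZYT, 21.6, 30.5 and 24.6 CPM in Model, and 15.5, 16.6 and 15.5 CPM in Blank (0.93, SE 0.16, adjusted p = 0.042). Its SYT libraries (23.1, 23.9 and 21.3 CPM) and YJT libraries (21.5, 28.6 and 30.3 CPM) also exceeded every Blank library. Tldc2 stood at 0.0743, 0.206 and 0.150 CPM in YJZYT and had no count in Blank, which makes it at least 10.5-fold higher over a floor of 3 counts in the Blank group (adjusted p = 0.042). It lay below 1 FPKM and is named because only 3 genes were higher. Without TMM scaling 0 higher genes passed, and the median of all genes moved to -0.14. Mrap, an accessory protein of the ACTH receptor, came next without passing, at 1.95, 2.63 and 2.98 CPM in YJZYT and 0.605, 0.651 and 0.676 CPM in Blank (1.96, SE 0.39, adjusted p = 0.052). Kctd11, an adaptor of a ubiquitin ligase (1.01, SE 0.21, adjusted p = 0.063), and the sorting nexin Snx15 (0.85, SE 0.19, adjusted p = 0.073) followed, also without passing. C1qtnf12, a secreted metabolic factor, was at 4.01, 4.28 and 3.21 CPM in YJZYT and 1.3, 1.42 and 1.67 CPM in Blank (1.39, SE 0.32, adjusted p = 0.075). Bysl and Ddx20, which act in ribosome and snRNP assembly, and the mitochondrial rRNA methyltransferase Mrm1 had log2 fold changes of 0.65, 0.58 and 0.85 (adjusted p = 0.0992, 0.102 and 0.111).

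**Figure D5:**
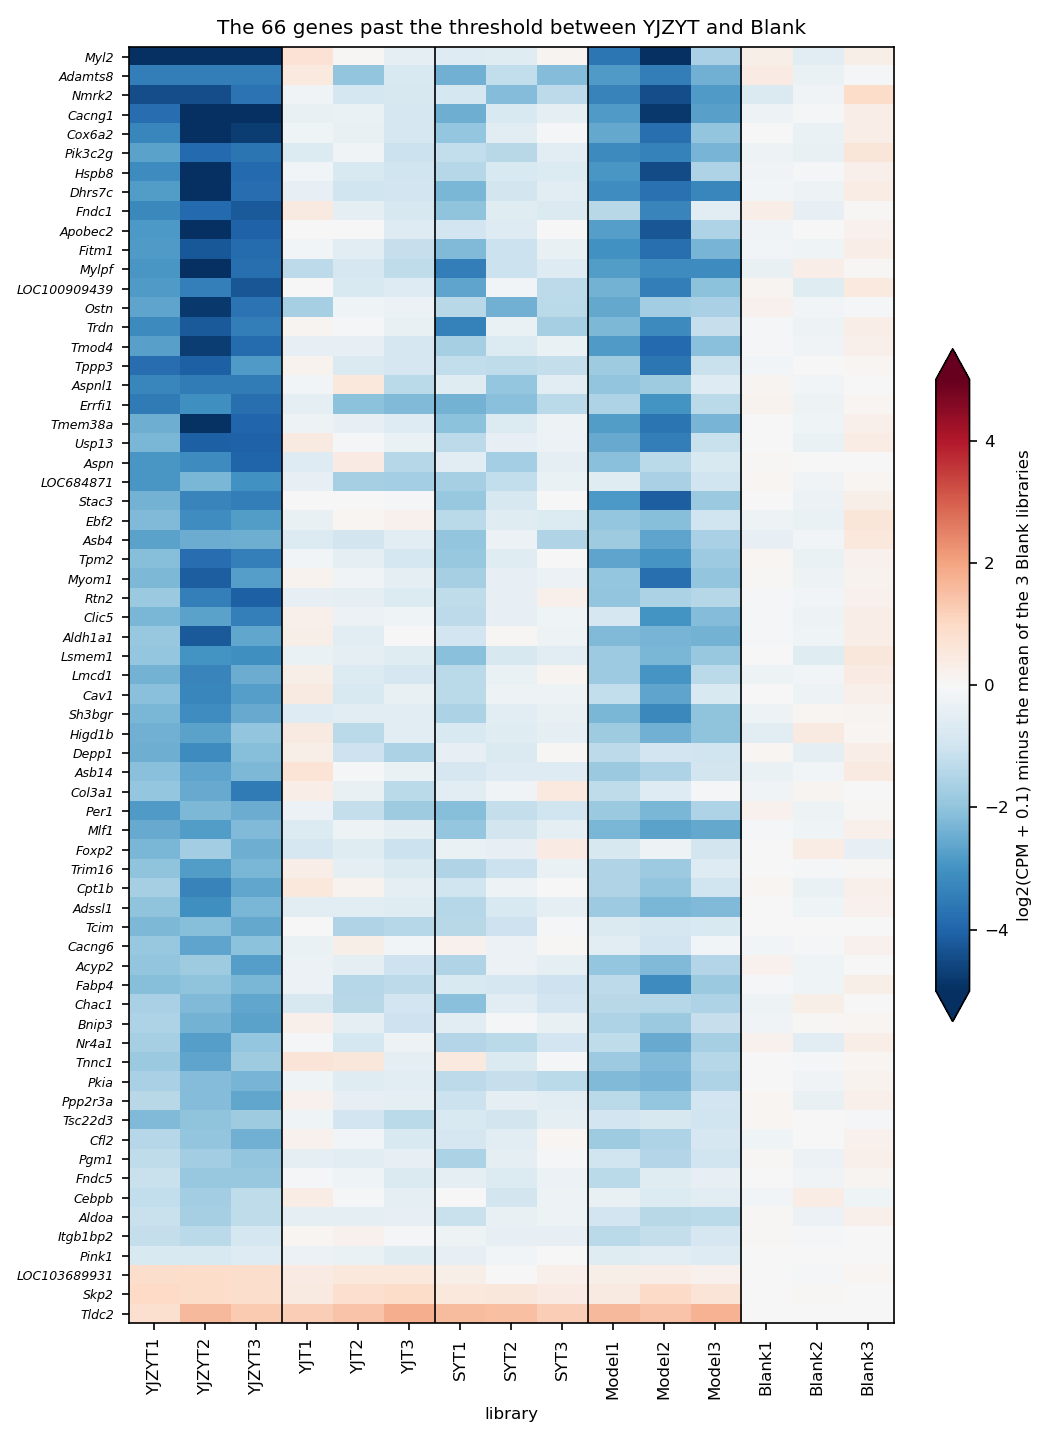
Rows are the 66 genes that passed between YJZYT and Blank, columns the 15 libraries in the order YJZYT, YJT, SYT, Model and Blank, and colours log2(CPM + 0.1) minus the mean of the 3 Blank libraries (blue lower, red higher; values past 5 are drawn at 5). The 63 lower rows are blue in all 3 YJZYT columns, and YJZYT2 is the darkest of the 3 in rows such as Apobec2, Mylpf, Tmod4 and Tmem38a.

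No member of the osteoblast, osteocyte and osteoclast lists passed. Of the 18 osteoblast genes 16 were lower, with a median of -0.44 over the list. In this list 0 passed and 0 had an unadjusted p under 0.05, and the spread within YJZYT was wide. Col1a1 stood at 28997, 13733 and 2431 CPM in YJZYT, 16736, 21029 and 43416 CPM in Model, and 9218, 31240 and 20943 CPM in Blank (-0.44, SE 0.95, adjusted p = 0.879). YJZYT3 was below all Blank libraries and YJZYT1 near the highest, and the osteoblast median was -0.01 without YJZYT3 and -0.93 without YJZYT1. The osteoblast transcription factors Runx2 (-0.34, SE 0.44, adjusted p = 0.795) and Sp7 (0.22, SE 0.74, adjusted p = 0.928) did not pass. Osteocalcin (Bglap) was at 1134, 1204 and 440 CPM in YJZYT and 829, 1943 and 1419 CPM in Blank (adjusted p = 0.757). The 12 osteocyte genes were all lower with a median of -0.73 (-1.24 without YJZYT1, -0.52 without YJZYT3), and 1 had an unadjusted p under 0.05, against 7.56% of all genes lower. Among them, the matrix phosphoprotein Dmp1 had 3 YJZYT libraries (313, 359 and 183 CPM) below all 3 Blank libraries (455, 808 and 657 CPM) at an adjusted p of 0.528. Sclerostin (Sost), the osteocyte inhibitor of Wnt signalling, overlapped at 17.0, 1.18 and 6.59 CPM in YJZYT and 21.1, 5.70 and 17.3 CPM in Blank.

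Osteoclast genes were lower for 12 of 16 members, with 0 passing and 1, higher, at an unadjusted p under 0.05 (4.32% of all genes higher). Their median was -0.16. That median turned to 0.17 without Blank2 and 0.12 without YJZYT3, and was -0.45 without YJZYT1. Cathepsin K (Ctsk) stood at 2728, 2201 and 452 CPM in YJZYT and 916, 3206 and 1763 CPM in Blank, with the groups overlapping, and tartrate-resistant acid phosphatase (Acp5) had a log2 fold change of -0.27 (SE 0.79, adjusted p = 0.917). The osteoclast ligand RANKL (Tnfsf11) was at 1.72, 0.660 and 0.566 CPM in YJZYT, 3.22, 2.18 and 1.96 CPM in Model, and 3.59, 6.20 and 2.44 CPM in Blank (-2.05, SE 0.62, adjusted p = 0.183). Its decoy receptor osteoprotegerin (Tnfrsf11b) was at 11.1, 5.13 and 3.41 CPM in YJZYT and 8.25, 12.4 and 14.1 CPM in Blank (-0.82, SE 0.87, adjusted p = 0.738). Oestrogen receptor alpha (Esr1) was at 4.46, 3.43 and 1.96 CPM in YJZYT and 3.54, 1.66 and 1.11 CPM in Blank (0.64, SE 0.72, adjusted p = 0.757), and 0 of 12 oestrogen receptor and target genes passed, with 1 at an unadjusted p under 0.05. Of the 21 Wnt pathway genes 16 were lower and 0 passed. At an unadjusted p under 0.05 stood 4 lower and 1 higher, against 7.56% and 4.32% of all genes. The receptor Fzd4 came nearest to passing, at 10.5, 6.14 and 7.89 CPM in YJZYT and 30.8, 26.3 and 34.0 CPM in Blank (adjusted p = 0.057). Igf1 was at 12.8, 17.4 and 7.03 CPM in YJZYT and 24.2, 25.1 and 32.1 CPM in Blank (-1.13, SE 0.45, adjusted p = 0.326).

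Blood cell lists did not move one way. Megakaryocyte and platelet genes were lower for 14 of 15 members (median -0.64) and monocyte and macrophage genes for 13 of 15 (median -0.65), with 0 passing in either list. At an unadjusted p under 0.05 stood 0 and 5 members, all lower, against 7.56% of all genes lower. Over Blank, the megakaryocyte list median was -0.72 in Model, -2.24 in SYT and -0.75 in YJT. The monocyte list median was -0.05, -0.38 and -0.73 in the same order. All 20 erythroid genes were higher in YJZYT by a median of 0.64, but 0 passed, 0 had an unadjusted p under 0.05 and 3 did not overlap, against 9.93% of all genes higher without overlap. Without YJZYT3 the erythroid median was 0.41. Haemoglobin transcripts took 8.63%, 18.1% and 20.0% of counts in YJZYT, against 14.6%, 10.1% and 10.3% in Blank (exact two-sided permutation p = 0.4, n = 3 each), so that YJZYT1 was below every Blank library. The haemoglobin stabilising protein Ahsp was at 685, 1456 and 1612 CPM in YJZYT and 728, 650 and 541 CPM in Blank (0.97, SE 0.49, adjusted p = 0.462). All 19 cell cycle genes were higher by a median of 0.42 (0.26 without Blank2), with 0 passing and 3 at an unadjusted p under 0.05, against 4.32% of all genes higher at that p. The mitotic kinase Cdk1 was at 121, 162 and 177 CPM in YJZYT and 111, 83.6 and 92.0 CPM in Blank (adjusted p = 0.289). The 13 mitochondrially encoded genes were higher by a median of 0.44 (0.03 without YJZYT1) with 0 passing and 0 at an unadjusted p under 0.05. The share of counts of all 37 mitochondrial entries of the table was 15.6%, 6.43% and 9.16% in YJZYT and 6.07%, 10.7% and 7.44% in Blank, and without YJZYT1 the mean difference turned to -0.273 percentage points.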

How the data were processed

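Bulk poly(A) RNA sequencing of bone gave 15 libraries in 5 groups of 3, grouped by their titles. Per the labels' protocols, RNA was selected on oligo(dT) beads, second strands were marked with dUTP and adapters carried molecular identifiers. Tools listed in the submitters' processing notes, with no role given, are StringTie 1.3.4d, HISAT2 2.0.4, cutadapt 1.9, edgeR, DESeq2 and UMI-tools. No genome build, counting step or use of strand or identifiers is stated for them, so overlapping genes and near-identical copies may share reads. Raw counts and FPKM values of 22468 genes, both made by the authors per the file headers, form 1 deposited table.

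The counts were fitted with edgeR 4.0.16 in R 4.3.3 (filterByExpr, 17657 genes tested and 4811 left out; TMM; robust quasi-likelihood; 1 mean per group over all 15 libraries, 10 residual degrees of freedom; biological coefficient of variation 42.7%), two-sided with Benjamini-Hochberg adjustment at 0.05. SE is the log2 fold change over the root of F. Shares of counts were compared with exact permutation tests. The test was tried on counts simulated for all 15 libraries, with genes altered in YJZYT (17333 genes): of 50 genes altered at each size, 22% were called at 2-fold, 78% at 4-fold, 80% at 8-fold and 94% at 16-fold, and 6 of 143 calls were false. Genes were drawn independently of each other, so shifts shared by many genes of a library were left out. These rates need not hold for the data, where 9 of 75 muscle list genes passed at a median log2 fold change of -3.39.

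FPKM served for the naming rule and for limma 3.58.1 as an alternative, beside DESeq2 1.42.0. Named were up to 12 genes in each direction that passed, reached 1 FPKM in a group mean and did not overlap, filled to 8 where fewer passed, with 18 key genes and a selection from the 4 members of smallest p per list. Other genes named, such as LOC103689931, Tldc2, Postn, Fkbp5, Sgk1 and members of the 66 past the first 12, and the selection within lists, were chosen after their values were seen. The 42 lists, the key genes and the comparison were chosen with earlier results of these data known. Promoters came from RefSeq (GRCr8), matched by Entrez ID. The glucocorticoid response element and the TATA box were searched after the data had been seen. The full palindromic response element was in 0 promoters of the lower genes, the muscle lists and the glucocorticoid list, against 0.0149% of all promoters. At so low a share a count of 0 was likely for any list of this size, so nothing is drawn from it.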

Additional observations from a re-analysis of the deposited data

How the results depend on the processing

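The count of 66 genes (3 higher and 63 lower in YJZYT) was also 66 with RLE size factors, 64 without the filter on low counts, 64 with the 6 libraries alone (1 higher, 63 lower; 28 of the 66 passed) and 59 without scaling factors (0 higher, 59 lower). It was 19 among genes of at least 5 FPKM (2 higher, 17 lower), where fewer genes were tested. DESeq2 gave 724 (120 higher, 604 lower), all 66 among them, and limma gave 313 (8 higher, 305 lower) with 1 added to FPKM before the log2 and 279 (9 higher, 270 lower) with 0.1 added. An unadjusted p under 0.05 with a fold change of 2 or more gave 1175 (204 higher, 971 lower). The 2 settings chosen after seeing the data, leaving out YJT3 and YJZYT3 together and adding the muscle score, gave 1 gene (0 higher, 1 lower) and 0 genes. Leaving out 1 library at a time gave between 0 and 168 genes, 0 to 5 of them higher and 0 to 163 lower. The cause of these differences was not tested.

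With the replicate number as a block, 6 genes passed (0 higher, 6 lower). The correlations of the deviations of same-numbered YJZYT and Blank libraries were -0.23, 0.07 and -0.11, so the numbers were not taken to pair the samples.

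Among results that did not pass, some changed direction. Without YJT3 and YJZYT3 the adjusted p was 0.999 for Col1a1, 0.959 for Ctsk and 0.985 for Acp5, and for Sp7 it was 0.943 and 0.922 under the limma fits with 1 and 0.1 added. Leaving out 1 library at a time, the adjusted p ranged over 0.601 to 1 for Col1a1, 0.814 to 0.994 for Sp7, 0.766 to 0.971 for Ctsk and 0.675 to 0.990 for Acp5. The median of the RANKL list ranged from -0.69 to 0.14, and the YJZYT minus Blank share of mitochondrial counts from -0.273 to 4.33 percentage points. With 3 libraries a group and a coefficient of variation of 42.7%, differences near 2-fold were mostly below what the test could call. Far larger differences could go uncalled too: 9 of 75 muscle list genes passed, at a median log2 fold change of -3.39.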
